A study of Homo sapiens with 18 samples.

Results

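The RAB small GTPases of the TempO-Seq table were taken as every probe whose gene symbol consists of RAB, a number and at most 1 letter, which gave 62 genes and 68 probes of the 19289 genes and 21111 probes measured. Of the 62 genes, 58 had 1 probe and 4 had more (RAB18 with 4, and RAB1A, RAB13 and RAB34). BT549, Hs578T and SUM149PT, established cell lines from human triple-negative breast cancer (TNBC), were transfected with 50 nM of an siRNA pool against ASAP1 (siASAP1) or with control siRNA (siCtrl) and lysed after 72 h, with 3 replicates in each of the 6 groups. ASAP1 is a GTPase-activating protein for Arf proteins, and siASAP1 was compared with siCtrl within each line. The siCtrl was a mixture of kinase siRNAs in the study's methods, and the groups are separate transfections of 1 line each, so every library carries an siRNA. TempO-Seq ligates 2 neighbouring detector oligos on each target RNA and counts the ligated pair, and levels are given as normalized counts, the reads of a probe divided by the library's size factor. A level is compared only with the same probe in other libraries, since each probe reads its own target with its own efficiency.

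RAB proteins are membrane switches. In the GTP-bound form they recruit effectors (tethers, motors, sorting complexes) to an organelle. Guanine nucleotide exchange factors (GEFs) load the GTP, GTPase-activating proteins (GAPs, mostly TBC-domain proteins) end the active state, and GDP dissociation inhibitors and escort proteins carry the prenylated RAB between cytosol and membrane. RAB5 acts on early endosomes, RAB7 on late endosomes and lysosomes, RAB4 and RAB11 on recycling endosomes, RAB8, RAB3 and RAB27 on the way to the plasma membrane, and RAB1, RAB2 and RAB6 at the endoplasmic reticulum (ER) and the Golgi. ASAP1 is known to act with ARF4, RAB11, RAB11FIP3, the GEF RAB3IP and RAB8 in a carrier pathway from the Golgi to the cilium.

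The libraries held 4.63 to 12.5 M reads (median 6.63 M). ASAP1 itself was at normalized counts of 1107, 966 and 944 in the siCtrl libraries of BT549 and at 367, 729.7 and 783 after siASAP1. It was at 1641, 1414 and 2697 against 782, 825 and 1261 in Hs578T, and at 1087, 189 and 1314 against 282, 468 and 184 in SUM149PT. The groups did not overlap in BT549 and Hs578T (two-sided exact permutation p = 0.1 in each, the smallest that 3 libraries against 3 allow) and overlapped in SUM149PT (exact permutation p = 0.3), where the library labelled siCtrl replicate 2 was as low as the silenced ones. That library also had the lowest correlation with the mean of the other replicates of its group (r = 0.773), followed by SUM149PT siASAP1 replicate 2 (0.846) and BT549 siASAP1 replicate 1 (0.876). The counts below are therefore also given without the libraries that moved them most.

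Of the 8 epithelial probes, 7 had their highest siCtrl mean in SUM149PT, and most mesenchymal markers were higher in BT549 and Hs578T. The adhesion molecule EPCAM was at 31521, 20396 and 36679 in the siCtrl libraries of SUM149PT, at 1.25, 2.52 and 1.4 in BT549 and at 22.8, 10.6 and 23.6 in Hs578T. E-cadherin (CDH1) was at 94.4, 114 and 87.9 in SUM149PT and at 0 in all 12 libraries of the other lines. ZEB2, a repressor of epithelial genes, was at 847, 780.4 and 638 in BT549, at 662, 629.9 and 1034 in Hs578T and at 81.5, 94.7 and 62.3 in SUM149PT. The summed level of the 8 epithelial probes was 41961 to 57840 in the siCtrl libraries of SUM149PT, against at most 336 in those of BT549 and 495 in those of Hs578T, and EPCAM gave the most counts to this sum in SUM149PT. The exception was the keratin KRT14, at 0 in the siCtrl libraries of SUM149PT and at 0 to 12.8 in those of Hs578T, and KRT5 was at 0 in 1 siCtrl library of SUM149PT, the one labelled replicate 2. N-cadherin (CDH2), a mesenchymal marker, was nevertheless at 1463 to 2108 in the siCtrl libraries of SUM149PT against 253 to 462 in BT549, and the ZEB1 probe was at or near 0 in every library. Progesterone receptor probes were at or near 0 throughout, while 1 of the ESR1 probes read 24 to 191 in SUM149PT. PECAM1_14079, an endothelial probe, read 51.2 to 103 in the siCtrl libraries of SUM149PT and 13.9 to 24.6 in those of Hs578T. It read 0 to 2.1 in those of BT549, and the probes of CDH5, VWF and KDR were at 0. The leukocyte probes summed to at most 8.50 in any library.

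In the siCtrl libraries, RABs of recycling, exocytosis, late endosomes and the Golgi differed between the lines. Among the 49 RAB probes tested over the 9 siCtrl libraries (mean normalized count of at least 10), 9 differed between SUM149PT and BT549, 10 between SUM149PT and Hs578T and 4 between BT549 and Hs578T (limma, adjusted p under 0.05 and absolute log2 FC over 1). Over all 10255 probes the same limits called 18.2%, 20.2% and 13.8%, so the share of RAB probes called was at or near the background of SUM149PT and below that of the BT549 and Hs578T comparison. Without the library labelled siCtrl replicate 2 of SUM149PT, the counts were 16 and 17 of 48 for SUM149PT and 9 of 48 between BT549 and Hs578T. That library enters the comparison of the other 2 lines because all siCtrl libraries share 1 estimate of the spread. The shares of all probes rose with these counts to 33.2%, 30.7% and 21.3%. The last count was 0 of 48 without BT549 siCtrl replicate 2, against 9.09% of all probes. In the siASAP1 libraries, which are separate cultures of the same lines, every RAB difference called in siCtrl kept its sign. Kept signs were not counted over all probes. Of the RAB differences, 5 of 9, 7 of 10 and 2 of 4 passed the same limits again. Of all probes called in siCtrl, 67.1%, 74.2% and 75.6% did so (the limits called 21.7%, 27.9% and 19.5% of all probes in the siASAP1 libraries). The 3 comparisons share their siCtrl libraries in pairs. RAB25, RAB26, RAB42 and RAB39A had siCtrl reads in 1 line alone and so reached the minimum for testing only through the line in which they were high. Their calls are part of the counts above, as a description. Without them, the repeats were RAB3D for SUM149PT against BT549 and RAB27B for BT549 against Hs578T. For SUM149PT against Hs578T they were RAB3D, RAB13_5657, RAB6B and RAB7B. At a minimum of 50, which called none of them, 4 of 31 RAB probes differed between SUM149PT and BT549 (18.5% of all probes). The counts were 5 of 31 for SUM149PT against Hs578T (20.1%) and 2 of 31 for BT549 against Hs578T (965 of 6882 probes).

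**Figure D1:**
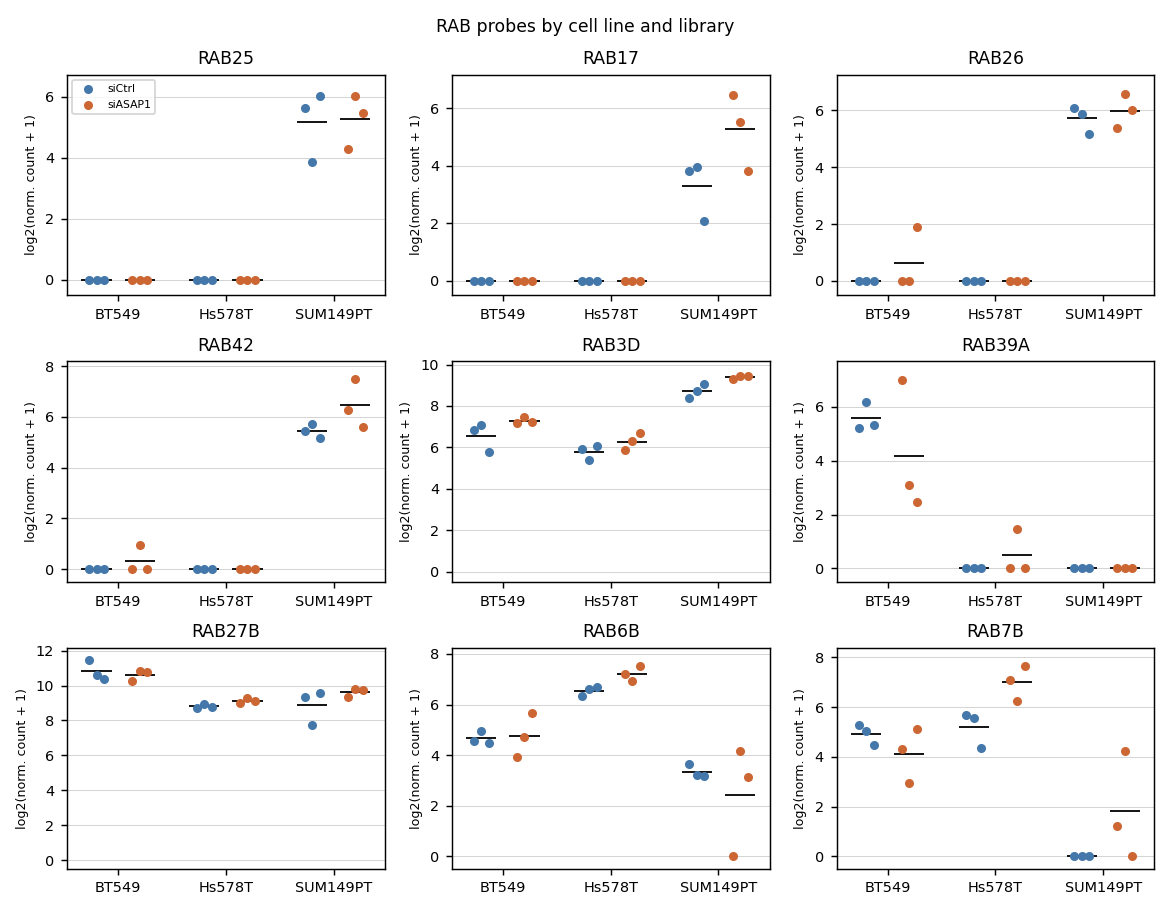
Level of 9 RAB probes on the log2(normalized count + 1) scale (vertical axes) in the 3 cell lines (horizontal axes), 1 point per library, blue for siCtrl and orange for siASAP1, with the group mean as a bar. RAB25 and RAB17 have points above 0 only in SUM149PT, RAB39A is highest in BT549, and RAB6B and RAB7B are highest in Hs578T.

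Among the recycling RABs, RAB25, a relative of RAB11 that is expressed in epithelia, set SUM149PT apart. It was at 48.6, 13.7 and 63.9 in the siCtrl libraries and at 18.5, 64.1 and 43.4 after siASAP1, and gave no read in any of the 12 BT549 and Hs578T libraries. Against a floor of 3 counts over the group, its siCtrl level was at least 46.8-fold higher in SUM149PT than in BT549. It was at least 42.0-fold higher than in Hs578T. These bounds and those below use the pooled level of the higher line and leave out the spread between its replicates. Its mean fell under the minimum, and both calls were lost, without SUM149PT siCtrl replicate 1 or replicate 3. RAB17, which serves recycling in polarized epithelial cells, gave 12.9, 14.6 and 3.2 in siCtrl and 87.3, 44.9 and 13.1 in siASAP1 libraries of SUM149PT, again with no read elsewhere. Its mean over the siCtrl libraries was too low for the baseline test. RAB19 followed the same pattern near the detection limit, with 22 reads over all SUM149PT libraries and none in the other lines. The other 6 recycling RABs tested, RAB11A, RAB11B, RAB14, RAB35, RAB4A and RAB4B, passed no baseline test. Without the library labelled siCtrl replicate 2, RAB35 was called in SUM149PT against both lines and RAB14 against BT549. With all libraries, RAB4B came nearest, with 0, 6.29 and 4.91 in BT549 and 36.3, 13.9 and 68.0 in Hs578T (log2 FC -3.26 ± 1.01, limma, adjusted p = 0.0615). It was called between these lines without the library labelled siCtrl replicate 2 of SUM149PT, with a replicate block and with all 18 libraries in 1 fit.

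RAB17, RAB19 and RAB25 were the only members with reads in at least 2 of the 6 SUM149PT libraries and none in the 12 libraries of the other lines (RAB37 gave 7 reads in 1 SUM149PT library). Their promoters are printed below, because they hold the E-box CAGGTG, which repressors such as ZEB2 are known to bind. Both strands were searched, and a match on the opposite strand reads CACCTG here. Each runs from 250 bases before to 50 after the gene start in RefSeq on GRCh38.p14, in the direction of transcription, with each match in capitals. RAB25 is at chr1:156060910-156061209 (+), RAB17 at chr2:237590685-237590984 (-) and RAB19 at chr7:140403808-140404107 (+).
RAB25: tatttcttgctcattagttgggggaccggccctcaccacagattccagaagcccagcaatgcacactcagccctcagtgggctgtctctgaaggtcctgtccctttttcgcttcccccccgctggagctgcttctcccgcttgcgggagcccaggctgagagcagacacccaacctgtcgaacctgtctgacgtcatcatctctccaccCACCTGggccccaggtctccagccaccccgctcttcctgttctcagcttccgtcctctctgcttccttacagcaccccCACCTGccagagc
RAB17: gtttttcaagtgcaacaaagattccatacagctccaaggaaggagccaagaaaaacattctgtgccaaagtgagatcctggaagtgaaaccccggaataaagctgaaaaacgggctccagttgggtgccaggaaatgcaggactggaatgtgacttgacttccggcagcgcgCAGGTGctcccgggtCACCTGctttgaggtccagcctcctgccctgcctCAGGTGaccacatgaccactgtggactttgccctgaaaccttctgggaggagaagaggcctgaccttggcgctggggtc
RAB19: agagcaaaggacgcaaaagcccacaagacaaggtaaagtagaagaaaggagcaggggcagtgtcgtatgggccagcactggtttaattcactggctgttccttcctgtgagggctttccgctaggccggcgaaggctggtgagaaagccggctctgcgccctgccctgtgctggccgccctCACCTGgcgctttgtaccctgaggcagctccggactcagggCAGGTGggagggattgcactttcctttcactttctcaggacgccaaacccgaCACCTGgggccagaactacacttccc
The first base of the matches lies 41 bases before and 37 after the start in RAB25, 78, 63 and 29 before it in RAB17, and 69 and 28 before and 24 after it in RAB19. A window was given for 49 of the 62 RAB genes. Of these, 12 held the E-box, 9 of them once, and these 3 genes were the only ones with 2 or more. Counted by window, since some genes have several, 17.1% of the 70 RAB windows held it and 4.29% held it at least 2 times, against 20.6% and 3.49% of all 35116 promoter windows of this length. The motif was chosen after the levels were seen, and the rule that picks these genes was set after the motif counts of the RAB promoters were seen. The match between the picked genes and the motif is therefore a description and no independent support, and a match describes the sequence, not a bound site.

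Among the exocytic RABs, RAB26 and RAB3D, both known from regulated secretion, were higher in SUM149PT. RAB26 was at 67.2, 58.3 and 35.2 in the siCtrl libraries of SUM149PT and at 0 in those of the other lines. This was at least 69.9-fold higher than in BT549 and at least 62.7-fold higher than in Hs578T. RAB3D was at 338, 422 and 532 in SUM149PT, at 112, 133 and 54.0 in BT549 and at 59.9, 40.8 and 65.0 in Hs578T. Its log2 FC was 2.17 ± 0.46 (SE) against BT549 and 2.94 ± 0.46 against Hs578T (adjusted p = 0.00788 and 0.00117), with no overlap between SUM149PT and either line. RAB27B, which docks secretory vesicles and multivesicular bodies, was instead highest in BT549, with 2775, 1551 and 1338 against 416, 496 and 441 in Hs578T and 662, 216 and 751 in SUM149PT. Its log2 FC was 1.99 ± 0.49 for BT549 over Hs578T (adjusted p = 0.0231) and -1.91 ± 0.49 for SUM149PT over BT549 (adjusted p = 0.0220). Both calls were lost without BT549 siCtrl replicate 1 or replicate 2, and the first also without any siCtrl library of Hs578T. RAB27A and RAB8A were not called in any of these comparisons, though RAB8A was called in SUM149PT against both lines without the library labelled siCtrl replicate 2. RAB8B, a paralog of RAB8A in exocytosis, was lowest in SUM149PT, with 172, 97.5 and 187 against 478, 461 and 606 in BT549 and 732, 854 and 626 in Hs578T (log2 FC -1.80 ± 0.35 and -2.31 ± 0.35, adjusted p = 0.00516 and 0.00101). One of the 2 RAB13 probes, RAB13_5657, was lower in SUM149PT than in Hs578T (log2 FC -1.49 ± 0.39, adjusted p = 0.0233), a call lost without SUM149PT siCtrl replicate 1 or any siCtrl library of Hs578T.

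The late endosomal and lysosomal RABs gave calls in both directions. RAB7A, the general late endosomal RAB, was at 1519, 1502 and 1723 in BT549, at 1782, 1831 and 882 in Hs578T and at 732, 438 and 467 in SUM149PT (log2 FC of SUM149PT -1.57 ± 0.37 against BT549 and -1.42 ± 0.37 against Hs578T, adjusted p = 0.0137 and 0.0216). The first call was lost without siCtrl replicate 3 of SUM149PT or of BT549, and the second without siCtrl replicate 3 of SUM149PT or replicate 1 or 2 of Hs578T. RAB7B, which acts between endosomes and the Golgi, gave no read in the siCtrl libraries of SUM149PT and was at 49.8, 46.5 and 19.7 in Hs578T, at least 32.1-fold higher (adjusted p = 0.000208), and at 37.4, 31.4 and 21.0 in BT549 (adjusted p = 0.000329). RAB42 went the other way, with 42.9, 51.0 and 35.2 in SUM149PT and no read in the other siCtrl libraries (at least 56.7-fold against BT549 and 50.9-fold against Hs578T). Its mean fell under the minimum for testing once the library labelled siCtrl replicate 2 was left out. RAB39A, linked to late endosomes, was at 36.2, 71.1 and 38.6 in BT549 and at 0 in the siCtrl libraries of Hs578T and SUM149PT (at least 58.9-fold and 41.7-fold). Its mean fell under the minimum, and both calls were lost, without BT549 siCtrl replicate 2.

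Of the 15 ER and Golgi probes tested, 2 were called for SUM149PT against Hs578T, 1 for BT549 against Hs578T and 0 for SUM149PT against BT549. Of all probes, 20.2%, 13.8% and 18.2% were called in these comparisons. RAB6B, a Golgi RAB best known from neurons, was at 79.3, 96.3 and 101 in Hs578T against 22.5, 30.2 and 21.0 in BT549 and 11.4, 8.2 and 7.99 in SUM149PT (log2 FC of SUM149PT over Hs578T -3.20 ± 0.50, adjusted p = 0.00126, and of BT549 over Hs578T -1.88 ± 0.50, adjusted p = 0.0341). The latter call was lost whenever a siCtrl library of BT549 or Hs578T was left out. RAB2A, which acts between ER and Golgi, was called for SUM149PT below Hs578T (log2 FC -2.21 ± 0.63, adjusted p = 0.0339), but its siCtrl values of 436, 2393 and 428 in SUM149PT had a single high library, the one labelled replicate 2. This call was lost without SUM149PT replicate 1 or 3, BT549 replicate 2 or 3, or Hs578T replicate 1 or 2. RAB1A and RAB6A passed no baseline test. The 7 early endosomal probes, RAB5A among them, gave no call in any of the 3 comparisons, against the same shares of all probes. Without the library labelled siCtrl replicate 2 of SUM149PT, RAB21 and RAB22A were called in SUM149PT against BT549, and RAB20 against Hs578T. RAB23, a negative regulator of Hedgehog signaling, was at 307, 463 and 363 in BT549 and at 132, 95.5 and 178 in Hs578T (log2 FC 1.50 ± 0.36, adjusted p = 0.0196), a call lost without siCtrl replicate 2 or 3 of BT549 or 1 or 2 of Hs578T.

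Of the regulators and effectors of RABs, some differed between the lines, though the called share of each list lay below that of all probes in SUM149PT against BT549 (18.2%). There, 2 GEF probes of 29 tested were lower and 2 higher, 1 GAP probe of 32 was lower and 3 higher, and 2 effector probes of 46 were lower and 4 higher. DENND2A, a GEF of RAB9, was at 721, 1776 and 1348 in BT549, at 245, 276 and 580.3 in Hs578T and at 0, 0.911 and 0 in SUM149PT (adjusted p = 4.55e-06 against BT549). MYO5C, a myosin motor of exocytic RABs in epithelia, was at 262, 99.3 and 272 in SUM149PT and at 1.25, 1.89 and 2.1 in BT549 (log2 FC 6.15 ± 0.63, adjusted p = 9.11e-05). Both probes of SYTL1, an effector of RAB27, were higher in SUM149PT, SYTL1_25933 with 358, 164 and 420.4 against 0, 0 and 0 in BT549. DENND2C, a GEF, was higher in SUM149PT than in BT549 (log2 FC 4.26 ± 0.68, adjusted p = 0.00155). ALS2CL, which binds RAB5, was at 34.3, 15.5 and 30.4 in SUM149PT and at 0, 3.77 and 0 in BT549. ALS2CL, SYTL1 and RIMS2 reached the minimum for testing only through the line in which they were high, so their values are given as a description. The counts of this paragraph include their calls. Of the GAPs, USP6NL, which acts on RAB5, had a log2 FC of 2.63 ± 0.40 (adjusted p = 0.00115). In SUM149PT against Hs578T, 3 GEF probes were lower and 3 higher, 2 GAP probes were lower and 2 higher, and 3 effector probes were lower and 5 higher, of the same numbers tested and against 20.2% of all probes. Of the 7 tested probes of the membrane cycle (GDP dissociation inhibitors, escort proteins and prenylation), 1 was called, ARL6IP5, at a log2 FC of -1.32 ± 0.40 in SUM149PT against Hs578T. Between BT549 and Hs578T, 1 GEF probe was lower and 1 higher in BT549, 1 GAP probe lower and 2 higher, and 2 effector probes lower and 3 higher, against 13.8% of all probes. RIMS2, an effector of RAB3 at release sites, was at 97.3, 135 and 162 in BT549 and at 0 in the siCtrl libraries of Hs578T.

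After ASAP1 silencing, 0 RAB probes passed an adjusted p under 0.05 in any line, by limma with or without voom weights. Without the weights, 0 of all probes passed in each line as well. With them, 0.0828% of all probes passed in BT549 and 0 in the other lines. At an unadjusted p under 0.05, BT549 had 6 of 49 (7.80% of all probes), Hs578T 3 of 43 (5.28%) and SUM149PT 3 of 47 (10.2%). By adjusted p, 4 passed in BT549 without siASAP1 replicate 1 (RAB7A, RAB2A, RAB28 and RAB35, with 5.63% of all probes), and in SUM149PT 1 passed without the library labelled siCtrl replicate 2 (RAB22A, with 1.08%) and 1 with all 18 libraries in a fit (RAB8B, with 2.48%). By the limits used in the study (unadjusted p under 0.05 and absolute log2 FC over 1), 4 of 49 RAB probes were lower and 1 higher in BT549, where the limits called 3.69% of all probes lower and 3.28% higher. In Hs578T, 1 of 43 was lower and 1 higher, against 1.44% and 1.34% of all probes. In SUM149PT, 1 of 47 was lower and 2 higher, against 4.29% and 5.27%. The RAB share lay above that of all probes for lower levels in BT549 and for both directions in Hs578T and below it otherwise, with at most 4 probes behind a share. RAB20 and RAB29 in BT549 and RAB4B in Hs578T reached the minimum only through the group in which they were high. Their calls are part of these counts and are given as a description. At a minimum of 50, 3 of 30 RAB probes were called in BT549 and 1 of 31 in Hs578T, against 7.16% and 2.20% of all probes. The SUM149PT count of 3 became 10 of 49 without the library labelled siCtrl replicate 2, where 23.4% of all probes were called. The BT549 count of 5 became 1 of 49 without siASAP1 replicate 3 (3.44% of all probes) and 11 of 49 without siASAP1 replicate 1 (22.5%), so the RAB counts moved with those of all probes. The RAB probes had a median log2 FC of -0.06 (BT549), 0.05 (Hs578T) and 0.35 (SUM149PT), where all probes tested had -0.0015, 0.01 and 0.09. With 1 library left out, the lowest and highest RAB medians were -0.17 and 0.04 (BT549), -0.0028 and 0.13 (Hs578T), and 0.18 and 0.36 (SUM149PT), where the 0.18 was without the library labelled siCtrl replicate 2 (0.11 for all probes). The BT549 median was above 0 without siCtrl replicate 2, and that of Hs578T below 0 without siCtrl replicate 3.

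**Figure D2:**
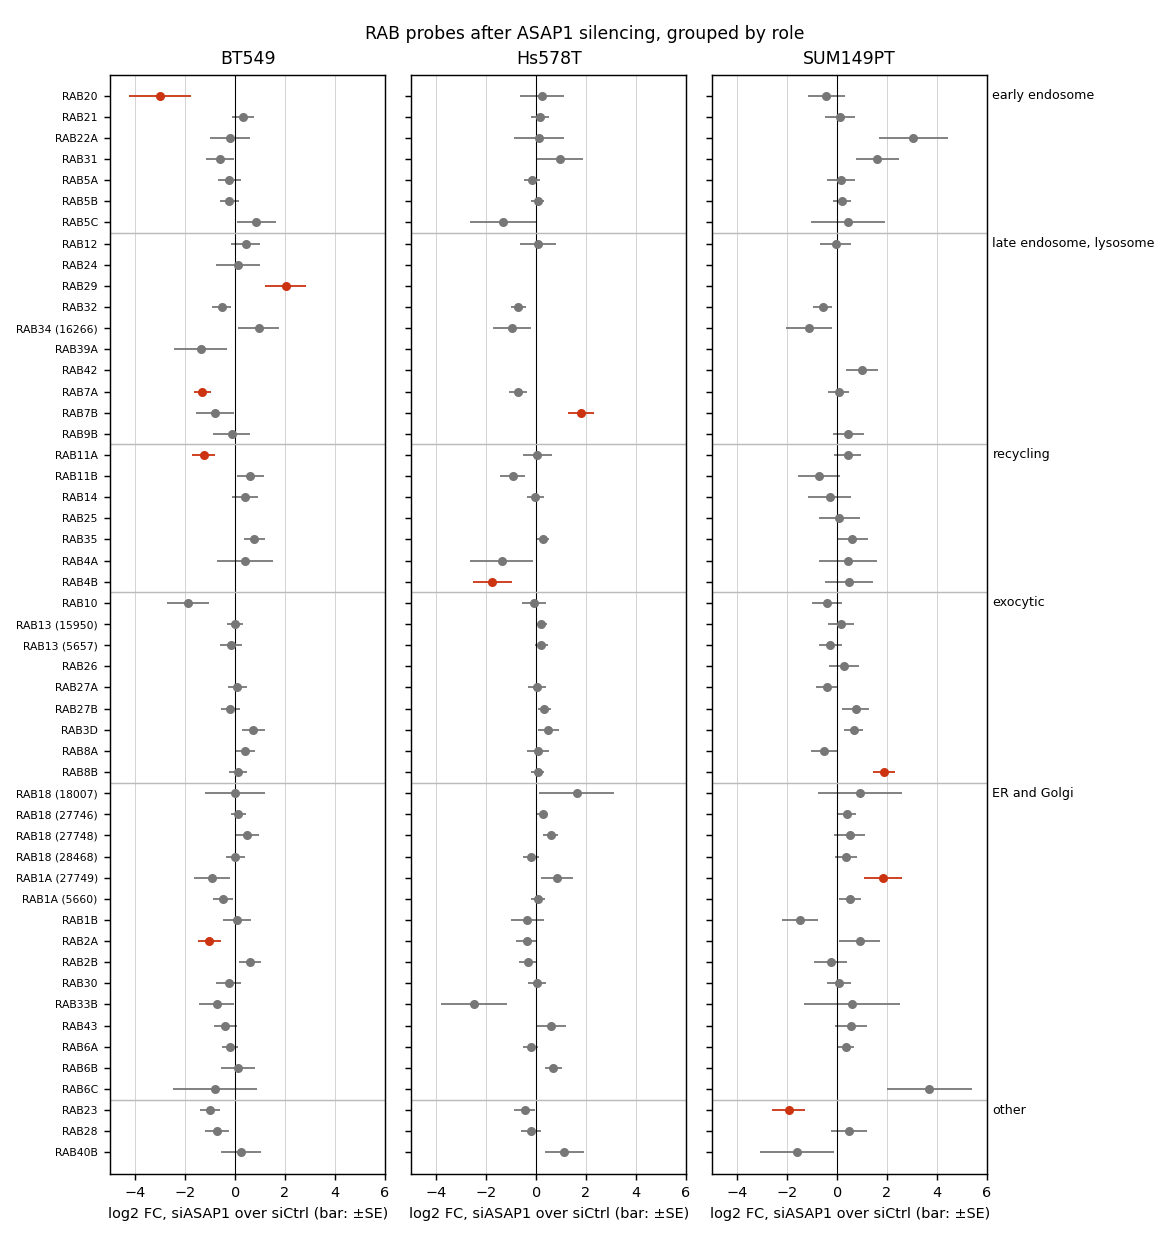
Log2 FC of siASAP1 over siCtrl with its SE (horizontal axes) for the 51 RAB probes that passed the minimum over the 18 libraries, in each cell line, ordered by role, with red for probes called by the limits of the study. A probe without a point was below the minimum in that line, the red points fall in all 6 role groups, and no probe is red in more than 1 line.

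RAB7A, which brings late endosomes to the lysosome, was the firmest of the calls in BT549. Its normalized counts of 1519, 1502 and 1723 in siCtrl became 761, 539 and 609 after siASAP1, with all silenced libraries below all controls, for a log2 FC of -1.32 ± 0.33 (limma, adjusted p = 0.394). It met the limits with each of the 6 BT549 libraries left out in turn. In Hs578T it was at 1782, 1831 and 882 against 712, 1308 and 686, which overlap, and in SUM149PT at 732, 438 and 467 against 820.3, 447 and 457. Mean levels after siASAP1 were 40.2% (BT549), 60.2% (Hs578T) and 105% (SUM149PT) of those in siCtrl. After siASAP1, RAB7A no longer differed by the limits between SUM149PT and BT549 (log2 FC -0.19 ± 0.36).

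RAB8B, which acts in exocytosis toward the cell surface and the cilium, had the smallest p of the increases in SUM149PT with all libraries kept. It went from 172, 97.5 and 187 in siCtrl to 464, 642 and 535 after siASAP1 (log2 FC 1.88 ± 0.44, limma, adjusted p = 0.334), and the groups did not overlap. In the other lines it was at 478, 461 and 606 against 575, 664 and 447 (BT549) and 732, 854 and 626 against 820.4, 808 and 677 (Hs578T), with overlapping groups in each. Between the silenced libraries of SUM149PT and BT549 its log2 FC was -0.03 ± 0.28, whereas the siCtrl libraries of SUM149PT lay below those of BT549. RAB8A was at 5486, 1774 and 6904 in the siCtrl libraries of SUM149PT and at 2232, 3755 and 2729 after siASAP1 (log2 FC -0.52 ± 0.55). It was not called, but without the library labelled siCtrl replicate 2, the low control, its log2 FC was -1.12 ± 0.34 (limma, adjusted p = 0.0999), which met the limits, while that of RAB8B was 1.59 ± 0.38 (adjusted p = 0.0683). RAB22A and RAB6C then had a smaller p than RAB8B, with log2 FCs of 4.66 ± 0.85 and 5.76 ± 1.22 (limma, adjusted p = 0.0489 and 0.0602).

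Some markers of the epithelial and mesenchymal state also differed after siASAP1 in SUM149PT. By the limits of the study, 2 of 7 epithelial probes tested (CDH1 and KRT17) and 3 of 8 mesenchymal probes (all of the matrix protein fibronectin, FN1) were higher, and 1 mesenchymal probe (VIM_18185, of the filament protein vimentin) was lower. Of all probes, 5.27% were called higher and 4.29% lower in this line. FN1_27231 went from 973, 753 and 836 to 4322, 5346 and 3493, and CDH1 from 94.4, 114 and 87.9 to 229, 263 and 210.3. VIM_18185 went from 2908, 1994 and 2965 to 791, 1040 and 955, so that in all 3 of these probes the groups did not overlap. The summed epithelial level was 33744 to 41315 after siASAP1, below the controls, and the summed mesenchymal level was 10104 to 12245 against 5936 to 7431, with FN1_27231 giving the most counts after siASAP1 and VIM_18185 in siCtrl. In BT549, 1 of 11 mesenchymal probes was lower (SPARC_6699), against 3.69% of all probes. In Hs578T, 1 of 4 epithelial (EPCAM) and 1 of 11 mesenchymal probes (COL5A1) were higher, against 1.34% of all probes. Over the 18 libraries FN1_27231 alone of these lists had an adjusted p under 0.05 (log2 FC 1.04 ± 0.26, limma, adjusted p = 0.0477). Of all probes, 0.678% were called higher and 1.06% lower in that fit. The part of these markers in the RAB values was not tested.

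**Figure D3:**
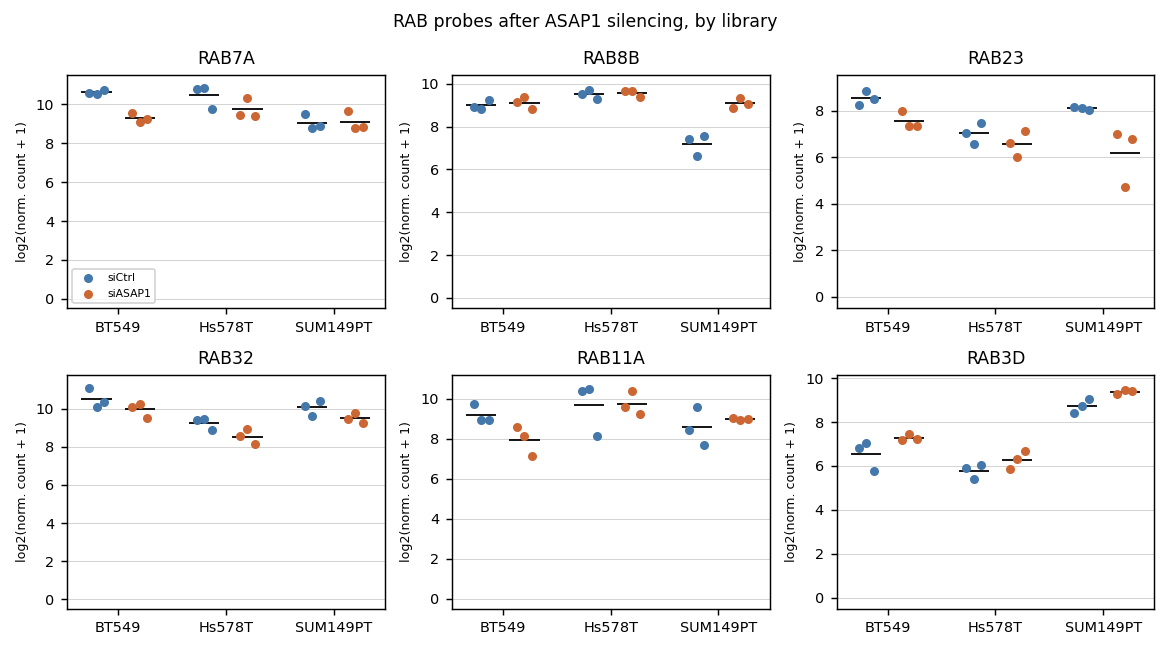
Level of 6 RAB probes on the log2(normalized count + 1) scale (vertical axes) in each cell line (horizontal axes), 1 point per library, blue for siCtrl and orange for siASAP1, with the group mean as a bar. The orange points lie below all blue ones for RAB7A in BT549 and for RAB23 in BT549 and SUM149PT, and above them for RAB8B in SUM149PT.

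RAB23 was at 289, 279 and 259 in the siCtrl libraries of SUM149PT and at 127, 25.6 and 109 after siASAP1 (log2 FC -1.94 ± 0.66, adjusted p = 0.410), a call lost without siCtrl replicate 1. In BT549 it went from 307, 463 and 363 to 252, 162 and 159.7, also without overlap and just short of the fold limit of the call (log2 FC -0.99 ± 0.40). In Hs578T it was at 132, 95.5 and 178 against 96.3, 63.0 and 141, with overlap. Of the other calls, that of RAB7B in Hs578T met the limits whichever library was left out, and those of RAB20, RAB29, RAB2A, RAB4B and RAB1A_27749 were each lost without any 1 of 4 libraries. In BT549, the recycling RAB RAB11A went from 842, 492 and 482 to 375, 279 and 139 (log2 FC -1.26 ± 0.47, adjusted p = 0.599), a call lost without siASAP1 replicate 3 or siCtrl replicate 1. RAB20, of early endosomes and phagosomes, went from 18.7, 25.2 and 11.9 to 0.889, 5.66 and 0, and RAB29, which recruits the kinase LRRK2, from 9.98, 6.29 and 4.21 to 16.9, 51.9 and 28.3. Both are counts low enough for single reads to weigh. RAB2A was at 2295, 4107 and 3067 against 2934, 1085 and 1047 in BT549, where replicate 1 of siASAP1 overlaps the controls. In Hs578T, RAB7B rose by the limits from 49.8, 46.5 and 19.7 to 134, 75.7 and 202 (log2 FC 1.80 ± 0.52, adjusted p = 0.915) and RAB4B, of the recycling route, went from 36.3, 13.9 and 68.0 to 9.07, 14.5 and 5.33 with overlap. In SUM149PT, RAB1A_27749 went from 65.8, 80.2 and 12.8 to 181, 121 and 154, while the second RAB1A probe, RAB1A_5660, was at 174, 153 and 230.2 against 197, 329 and 269, with overlap.

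Counting only whether the libraries overlapped, 4 RAB probes of 49 lay wholly below and 4 wholly above the controls in BT549, against 6.51% and 7.35% of all probes. In Hs578T, 1 of 43 lay below and 4 above (5.78% and 6.31% of all probes), and in SUM149PT 2 of 47 below and 5 above (8.41% and 8.87%). RAB3D was wholly above in BT549 and SUM149PT.

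With all 18 libraries fitted together and cell line as covariate, none of the 51 RAB probes passed an adjusted p under 0.05 in either direction, where limma called 1.06% of all probes lower and 0.678% higher. At an unadjusted p under 0.05 there were 5 (9.80%, against 15.8% of all probes), and with voom weights 1 had an adjusted p under 0.05, as did 2.05% of all probes. The lowest adjusted p was that of RAB23 (log2 FC -1.13 ± 0.31, adjusted p = 0.0694), lower than the siCtrl mean of its line in 8 of 9 siASAP1 libraries. RAB32, which serves lysosome-related organelles and mitochondria, followed (log2 FC -0.61 ± 0.19, adjusted p = 0.0987) and was below that mean in all 9. Its values were 2171, 1095 and 1289 against 1103, 1215 and 744 in BT549, 676, 707 and 481 against 374, 483 and 284 in Hs578T, and 1148, 788 and 1383 against 699.9, 878 and 607 in SUM149PT. RAB3D was above the mean in all 9 (log2 FC 0.63 ± 0.21, adjusted p = 0.139), with siASAP1 values of 142, 176 and 149.7 in BT549 against 112, 133 and 54.0. RAB7A and RAB8B had log2 FCs of -0.66 ± 0.24 (adjusted p = 0.160) and 0.69 ± 0.25 (adjusted p = 0.178). RAB35, a RAB of fast recycling and of endosomal actin, had 0.55 ± 0.27 (adjusted p = 0.327). RAB23, RAB32, RAB3D, RAB8B, RAB35, the RAB18 probes RAB18_27748 and RAB18_27746 and the exocytic RAB10 were the 8 probes with the smallest p among those that reached the minimum in each of the 3 lines and had the same sign in all of them. In SUM149PT the sign of RAB35 and RAB10 rested on the library labelled siCtrl replicate 2, since their log2 FCs of 0.61 and -0.41 became -0.08 and 0.23 without it. RAB7A was not among the 8, with a log2 FC in SUM149PT of 0.05 ± 0.44 (-0.08 ± 0.42 without that library).

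The other RABs that usually stand for a compartment passed no limit over the 18 libraries. The log2 FC was -0.08 ± 0.25 for RAB5A, -0.18 ± 0.74 for RAB4A, -0.27 ± 0.36 for RAB11A (called in BT549 alone of the single lines), -0.36 ± 0.42 for RAB11B, 0.03 ± 0.37 for RAB25, -0.01 ± 0.29 for RAB8A, -0.10 ± 0.20 for RAB27A, 0.29 ± 0.24 for RAB27B and -0.03 ± 0.17 for RAB6A. It was 0.03 ± 0.20 for RAB1A_5660 and 0.58 ± 0.50 for RAB1A_27749. At the SE of RAB4A, a log2 FC of 1 could not have been told from 0. Nor would it have passed the adjusted limit at the SEs of RAB11A, RAB11B, RAB25, RAB8A and RAB1A_27749. In the same fit RAB23 did not pass at -1.13 ± 0.31 (limma, adjusted p = 0.0694).

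The effect of siASAP1 differed between the lines for 0 of the 51 RAB probes at an adjusted p under 0.05 (interaction F test of limma, 0.00955% of all probes) and for 3 at an unadjusted p under 0.05 (5.88%, against 6.22% of all probes). RAB8B had the smallest adjusted p (0.172), followed by RAB20 (adjusted p = 0.746) and RAB7A (adjusted p = 0.801). For RAB8B, the effect in SUM149PT exceeded that in BT549 by 1.77 in log2 FC. That no RAB passed does not show that the lines respond alike.

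Within the carrier pathway that ASAP1 shares with RAB11 and RAB8, no gene passed the adjusted limit over the 18 libraries, ASAP1 included (log2 FC -0.96 ± 0.31, adjusted p = 0.127). The log2 FC was -0.02 ± 0.32 for ARF4, 0.38 ± 0.52 for RAB3IP and 0.88 ± 0.33 for RAB11FIP3 (adjusted p = 0.178), and the last was not called in any line. RAB3IP, the GEF of RAB8, was at 17.2, 86.6 and 35.2 in siCtrl and 96.6, 80.8 and 180.0 after siASAP1 in SUM149PT, and at 25.0, 26.4 and 26.7 against 106, 9.44 and 57.5 in BT549.

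**Figure D4:**
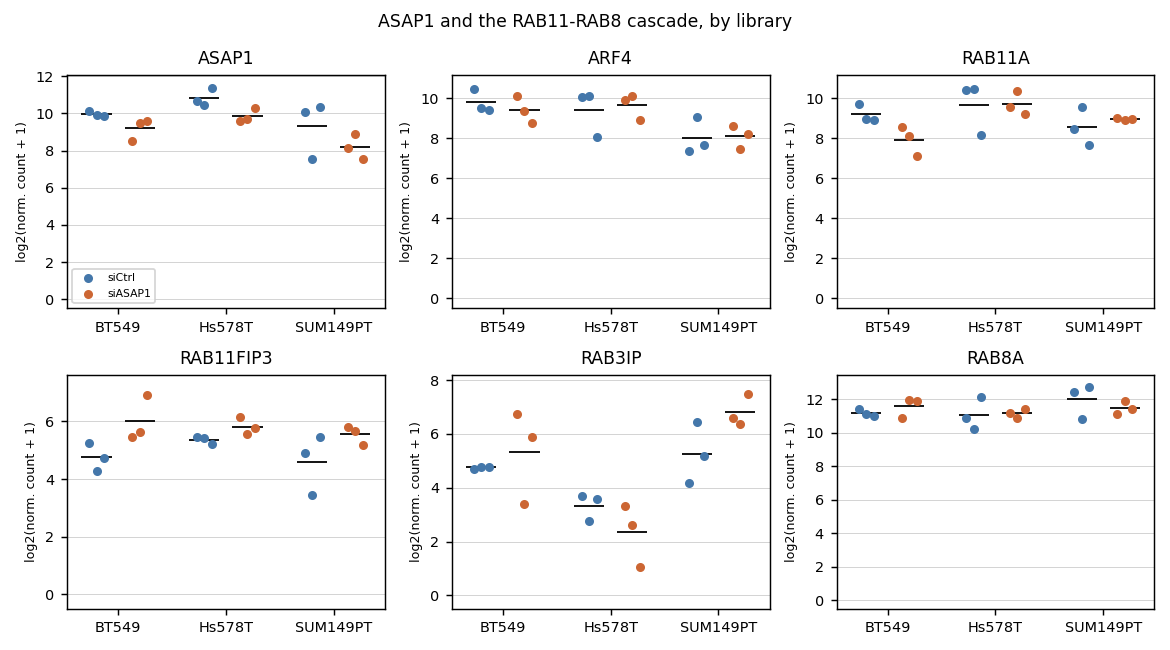
Level of ASAP1 and 5 genes of its carrier pathway on the log2(normalized count + 1) scale (vertical axes) in each cell line (horizontal axes), 1 point per library, blue for siCtrl and orange for siASAP1, with the group mean as a bar. The blue point of ASAP1 far below the others in SUM149PT is the library labelled siCtrl replicate 2, with a normalized count of 189.

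Among the regulators, TBC1D5, a GAP that acts on RAB7 with the retromer, was the 1 probe of the 4 machinery lists called over the 18 libraries (log2 FC -1.46 ± 0.32, adjusted p = 0.0221). It went from 218, 304 and 264 to 64.0, 150.1 and 238 in BT549, from 217, 319.8 and 614 to 70.3, 113 and 118 in Hs578T, and from 817, 286 and 1303 to 202, 328 and 167 in SUM149PT, without overlap in Hs578T only. None of the 30 GEF probes, the 45 effector probes or the 7 membrane cycle probes passed, nor did another of the 32 GAP probes. The fit called 1.06% of all probes lower and 0.678% higher. MYO5A, the myosin V that RAB27 and other exocytic RABs recruit, came next among the effectors (log2 FC 1.42 ± 0.40, adjusted p = 0.0695). By the limits of the study, 2 of 27 GEF probes were higher in BT549 (RAB3IL1 and RIN1), 1 of 30 GAP probes was higher (SGSM3), and of 39 effector probes 1 was lower (VPS41) and 1 higher (ACAP2), against 3.69% of all probes lower and 3.28% higher. In Hs578T, 2 of 28 GAP probes were lower (TBC1D1 and TBC1D5), 1 of 40 effector probes was higher (MYO5A) and 0 of 24 GEF probes were called, against 1.44% and 1.34% of all probes. In SUM149PT, 1 of 30 GEF probes was lower (DENND5A) and 2 higher (ALS2CL and DENND2C), 1 of 32 GAP probes was lower (TBC1D5) and 2 higher (EVI5 and TBC1D22B), and 1 of 48 effector probes was higher (VPS39), against 4.29% and 5.27% of all probes. ALS2CL rose there by the limits from 34.3, 15.5 and 30.4 to 149, 151 and 131 (log2 FC 2.46 ± 0.55, adjusted p = 0.334), without overlap. No probe of these lists passed an adjusted p under 0.05 in a single line, and 0 of all probes did in these fits.

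The replicates of a group differed along 1 main direction that many RAB probes shared. The first principal component of the deviations from the group means held 42.5% of the variance within groups, and 9 RAB probes had a Pearson's r over 0.7 with it and 11 an r under -0.7, over the 18 libraries, which makes 39.2% of the RAB probes against 36.6% of all probes. RAB2A (r = 0.97) and RAB28 (0.96) stood at one end and RAB35 (-0.95) and RAB11B (-0.94) at the other. The library labelled siCtrl replicate 2 of SUM149PT had the highest score. In SUM149PT the siCtrl values of RAB35 were 4128, 1051 and 4751 and those of RAB2A were 436, 2393 and 428, so that library was low for the first and high for the second. The 4 probes of RAB18 did not move together, since RAB18_18007 had an r of 0.88 and RAB18_27746 an r of -0.81. The median GC content of the transcripts was 40.1% for the 9 probes with positive r, 49.0% for the 11 with negative r and 49.1% for the 31 between, and its part in this was not tested. RAB18_18007 and RAB18_27746 carry the same value (37.6%), since it was taken per gene. RAB7A (r = 0.29) and RAB8B (-0.47) lay between.

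**Figure D5:**
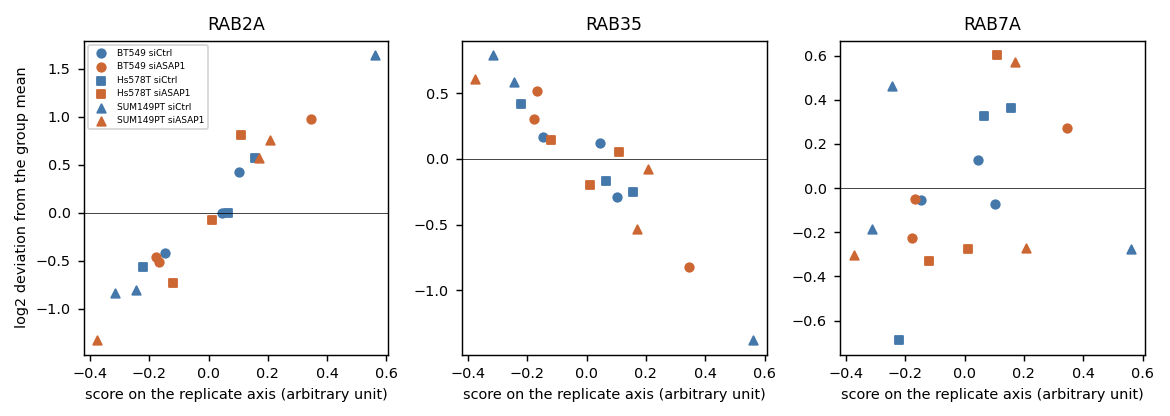
Deviation from the group mean in log2 normalized count (vertical axis) of RAB2A, RAB35 and RAB7A against the score of each of the 18 libraries on the main axis of differences between replicates (horizontal axis, arbitrary unit), with color for the treatment and shape for the cell line. RAB2A rises along the axis (r = 0.97), RAB35 falls along it (r = -0.95) and RAB7A follows it little (r = 0.29).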

How the data were processed

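The data were TempO-Seq libraries of 3 TNBC cell lines, assigned to line, treatment and replicate by the labels. The authors assigned reads to 21111 probes, divided the counts by DESeq2 size factors, and deposited log2 values after adding 1. The submitters' processing notes name bcl2fastq, Bowtie and DESeq2, and the genome build is not given in the sources used here. Whole reads were recovered for 100% of values (within 0.05 reads). The deposited values went into limma 3.58.1 (R 4.3.3; linear models with a trended empirical Bayes step). Probes averaging 10 or more normalized counts over a fit's libraries were kept. Fits were made per cell line, over 18 libraries adjusting for line, with the interaction, and over the 9 siCtrl libraries, with Benjamini-Hochberg adjustment over all probes. The fits were tested on simulated data, with a recovery limit that was set after a first one, at a larger spread, had not been met. At the larger of the simulated spreads the interaction test missed most changes. Depth was 4.63 to 12.5 M reads, and p-values rest on the spread between replicates, which exceeded counting error. The study describes biological triplicates.

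RAB genes and lists were chosen with earlier results of these data known. Named were 12 RABs and the ASAP1 carrier pathway in every case, the RAB probes with the smallest baseline p per role (up to 4), those called in silencing, the 8 with the smallest p and 1 sign over the 18 libraries, and up to 3 called probes per machinery list. RAB17, RAB19, the SUM149PT promoters, RAB2B, RAB4B at baseline, RAB6C, RAB14, RAB21, RAB22A and RAB28, the markers after siASAP1, the keratins and the probes on the replicate axis were named after their values were seen. Promoters came from RefSeq and GC content from GENCODE transcripts. Proteins planned for display are not shown here. Alternatives were other scalings, filters, a pseudocount of 0.1, a replicate block, voom weights, all libraries in 1 fit, siASAP1 libraries for the baseline and each library left out. The replicate axis as a covariate was added after seeing the data.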

Additional observations from a re-analysis of the deposited data

Results flagged for a closer look

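RAB2B, a Golgi RAB, had siASAP1 libraries on opposite sides of its siCtrl libraries in BT549 and Hs578T, though neither difference passed a limit. In BT549 every siASAP1 library (78.2, 85.9 and 110.4) lay above every siCtrl library (63.6, 61.6 and 54.7), with a log2 FC of 0.59 ± 0.45 (SE, limma, adjusted p = 0.698). In Hs578T the siASAP1 libraries (80.5, 104 and 78.9) lay below the siCtrl libraries (109, 104 and 120.2), with a log2 FC of -0.35 ± 0.33 (limma, adjusted p = 0.928). The highest siASAP1 and the lowest siCtrl value there both round to 104, so the groups were barely apart. The interaction test over the 3 lines gave RAB2B an adjusted p of 0.968 (limma), and the difference between these 2 lines alone was not tested.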

How the results depend on the processing

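The number of RAB probes called after siASAP1 in BT549 (5) became 3 at a minimum mean normalized count of 50 (7.16% of all probes), 3 with the replicate block and 0 by adjusted p, and ranged from 1 to 11 with 1 library left out. In Hs578T (2) it became 1 under scaling by library totals (2.97% of all probes), 1 at the minimum of 50 (2.20%), 1 with a pseudocount of 0.1 (2.59%) and 1 with voom weights (2.12%). It became 0 with all 18 libraries in a fit (2.78%) and 0 by adjusted p. With 1 library left out it ranged from 1 to 4, and the share of all probes from 1.66% to 6.67%. In SUM149PT (3) it became 6 with all 18 libraries in a fit (14.8% of all probes) and 7 with the replicate axis as a covariate (20.4%). It became 0 by adjusted p (0 of all probes in each line) and ranged from 2 to 10 with 1 library left out. Over the 18 libraries (0) it became 1 with voom weights (RAB23) and 3 with the replicate axis (RAB23, RAB32 and RAB35, with 8.30% of all probes). The interaction count (0) became 2 with the replicate axis (RAB8B and RAB2A, with 4.39% of all probes). Between BT549 and Hs578T (4) it became 2 at the minimum of 50 (965 of 6882 probes), 9 in the siASAP1 libraries (19.5% of all probes) and 9 with the replicate axis (24.7%), and ranged from 0 to 9 with 1 library left out. For SUM149PT against BT549 (9) it became 4 at the minimum of 50 (18.5%) and 14 with the replicate axis (30.7%), and ranged from 7 to 16. For SUM149PT against Hs578T (10) it became 5 at the minimum of 50 (20.1%) and 16 with the replicate axis (33.4%), and ranged from 7 to 17. With the replicate axis, 7 RAB probes passed an adjusted p under 0.05 in SUM149PT, among 1811 of the 10078 probes. No called log2 FC of a RAB probe changed sign under an alternative run for the comparison that called it, and no log2 FC over the 18 libraries of the 8 probes named for it did. Such changes were not counted over all probes. Medians near 0 changed sign, as did the log2 FCs in SUM149PT of RAB35, RAB10 and RAB7A, which were not called there, without the library labelled siCtrl replicate 2. Over all alternatives, the lowest and highest RAB medians after siASAP1 were -0.20 and 0.04 (BT549), -0.0028 and 0.17 (Hs578T), and 0.18 and 0.59 (SUM149PT). The cause of these moves was not tested.

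The correlation of same-numbered replicates' deviations from the group means was -0.19, -0.39 and 0.14 in BT549 and -0.33, -0.66 and -0.35 in SUM149PT, so the numbers did not pair there. In Hs578T it was 0.0998, 0.42 and 0.41, with the first just under the limit of 0.1 for a pairing, and 5 of 6 libraries correlated best with their own number (2 of 6 in BT549 and 0 of 6 in SUM149PT), a hint from the data and not from the labels. The replicate block raised the share of all probes called in Hs578T to 4.58%, with 37 by adjusted p, none of them a RAB. With the replicate block the counts were 3 in BT549 (6.11% of all probes), 3 in Hs578T and 2 in SUM149PT (3.48%), 0 over the 18 libraries (0.325%), 0 for the interaction and 5, 10 and 11 for the baseline comparisons (15.4%, 19.7% and 22.4%). Scaling by library totals gave all probes a median log2 FC of 0.06 in BT549, 0.12 in Hs578T, 0.30 in SUM149PT, 0.15 over the 18 libraries, 0.21 for BT549 over Hs578T and -0.20 for SUM149PT over BT549. With 3 replicates a group, a RAB with few reads (RAB20, RAB29, RAB4B) could show only large changes.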
